A study of Mus musculus with 10 samples.

Results

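Basement membrane genes were followed in liver sinusoidal endothelial cells, the cells that line the capillaries of the liver, of mice with a Gata4 deletion in these cells and of sibling controls. The 39 genes were taken by name from a list of collagen IV and laminin chains, nidogens, heparan sulfate and related proteoglycans, fibulins, emilins and multimerins, nephronectins, Fraser complex proteins and surface receptors. All 39 were among the 24704 genes tested. The group labelled Gata4-LSEC-KO ("knockout" here) carries a Clec4g-icre transgene, which drives Cre recombinase from control sequences of a gene expressed in sinusoidal endothelium, together with floxed Gata4 alleles; the labels call the controls WT, and do not say which of these alleles they carry. Each of the 10 arrays, 5 per group, holds RNA from a pool of 3 mice whose nonparenchymal liver cells were enriched with CD146 beads. Age and sex are not stated in the labels. Values are log2 array values as the authors deposited them, and a difference of 1 is a 2.00-fold change.

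A basement membrane is a thin sheet of matrix under epithelia and around vessels. Laminin heterotrimers, made of an alpha, a beta and a gamma chain, form one network, and type IV collagen trimers form another. Nidogens and heparan sulfate proteoglycans such as perlecan and agrin link the networks. Healthy liver sinusoids are lined by fenestrated endothelium without a continuous basement membrane, and its appearance there is part of what is called capillarization.

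Collagen IV genes lie in the genome as head-to-head pairs, and the promoter of Col4a1 and Col4a2 is shown because these genes rose together. RefSeq windows of 300 bases (250 before and 50 from the transcript start; build GRCm38.p6) were held for 30 of the 39 genes, 7 of them among the 9 that rose. The Col4a1 window is chr8:11312777-11313076 on the minus strand and the Col4a2 window chr8:11312555-11312854 on the plus strand. They share 78 bases, and the start sites lie 21 bases apart. Lamb1 (chr12:31265043-31265342, plus strand) and Fbln2 (chr6:91212514-91212813, plus strand) are shown as a laminin chain and a fibulin that rose. Capitals mark matches, on either strand, to a GC box, searched as GGGCGG, to a CCAAT box, searched by those letters, or to a GATA site. For the last, the forms searched were AGATAA, its variant with another last letter, AGATAG, the variant with another first letter, TGATAA, and the variant with each of these changes, TGATAG.
Col4a1: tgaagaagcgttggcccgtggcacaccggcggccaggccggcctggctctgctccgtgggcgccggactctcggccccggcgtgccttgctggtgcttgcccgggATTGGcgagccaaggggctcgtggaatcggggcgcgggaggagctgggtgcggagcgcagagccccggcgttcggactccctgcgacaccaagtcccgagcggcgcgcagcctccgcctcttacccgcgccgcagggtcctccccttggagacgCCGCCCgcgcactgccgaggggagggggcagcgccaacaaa
Col4a2: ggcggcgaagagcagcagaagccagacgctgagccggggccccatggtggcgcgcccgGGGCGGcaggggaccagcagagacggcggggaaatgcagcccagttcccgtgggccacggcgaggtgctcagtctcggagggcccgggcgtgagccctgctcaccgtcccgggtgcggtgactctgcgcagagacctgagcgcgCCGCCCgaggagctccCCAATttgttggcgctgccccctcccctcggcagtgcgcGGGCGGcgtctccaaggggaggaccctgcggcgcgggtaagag
Lamb1: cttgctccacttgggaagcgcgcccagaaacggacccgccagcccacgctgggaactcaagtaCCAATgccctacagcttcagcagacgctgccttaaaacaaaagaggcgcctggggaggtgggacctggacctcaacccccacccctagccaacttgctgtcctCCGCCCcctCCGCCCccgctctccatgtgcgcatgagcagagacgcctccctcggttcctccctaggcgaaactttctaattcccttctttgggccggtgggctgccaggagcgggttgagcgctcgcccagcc
Fbln2: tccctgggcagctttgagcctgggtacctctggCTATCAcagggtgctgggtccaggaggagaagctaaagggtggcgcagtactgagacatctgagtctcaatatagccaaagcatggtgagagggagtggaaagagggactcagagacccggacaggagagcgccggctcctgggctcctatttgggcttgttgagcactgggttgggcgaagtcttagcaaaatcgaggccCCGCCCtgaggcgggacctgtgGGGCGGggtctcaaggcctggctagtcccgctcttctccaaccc
Matches may overlap one another. The GATA letters occurred in 1 of the 9 windows of risen genes, that of Fbln2, in 4 of the 31 windows of genes that did not pass, and in 29.8% of all 32851 windows in the table. A GC box was in 7 of the 9, in 17 of the 31 and in 35.7% of all windows. The CCAAT letters were in 4 of the 9, in 12 of the 31 and in 37.4% of all. These are descriptions of letters in these windows, several genes have more than 1 window, and no binding was measured. G and C made up 74.0% of the Col4a1 window and 73.7% of the Col4a2 window, against a median of 52.7% over all windows. The 9 windows of risen genes ran from 52.3% (Col15a1) to 83.3% (Agrn). The shares of windows with each set of letters were not adjusted for base content, so they cannot be read as a lack or excess of sites.

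Control replicate 1 was the array least like the rest. It correlated with them at 0.920 to 0.944 across genes, against 0.969 to 0.988 among the other 9, and it was the lowest control array for 25 of the 39 genes. The counts of members are therefore also given without it. Gata4 itself stood at 8.59 ± 0.24 in knockout and 8.71 ± 0.15 in control arrays (SD, n = 5), which differ by -0.12 ± 0.13 (SE; limma adjusted p = 0.742). No source used here places its probes against the deleted exons, so this value does not check the labels.

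The question of the design is what the loss of Gata4 changes in these cells. Of the 39 basement membrane genes, 9 rose in the knockout, 0 fell and 30 did not pass (limma, Benjamini-Hochberg adjusted p under 0.05 over all 24704 genes). They were Col4a1, Col4a2, Lamb1, Lamc1, Nid2, Agrn, Col15a1, Col18a1 and Fbln2, and their folds ran from 2.01 to 3.67. Of all genes tested, 1.3% were called higher and 0.846% lower, against 23.1% of the members higher. At an unadjusted p under 0.05 there were 16 members higher and 4 lower, where 7.07% of all genes were higher and 6.57% lower. The knockout arrays lay wholly above the controls for 11 members and wholly below for 1, where 2.55% and 2.37% of all genes did so. The median log2 fold change over the 39 was 0.28 and over all genes -0.02. The members were chosen with earlier results of these data known, so the share is a description.

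**Figure D1:**
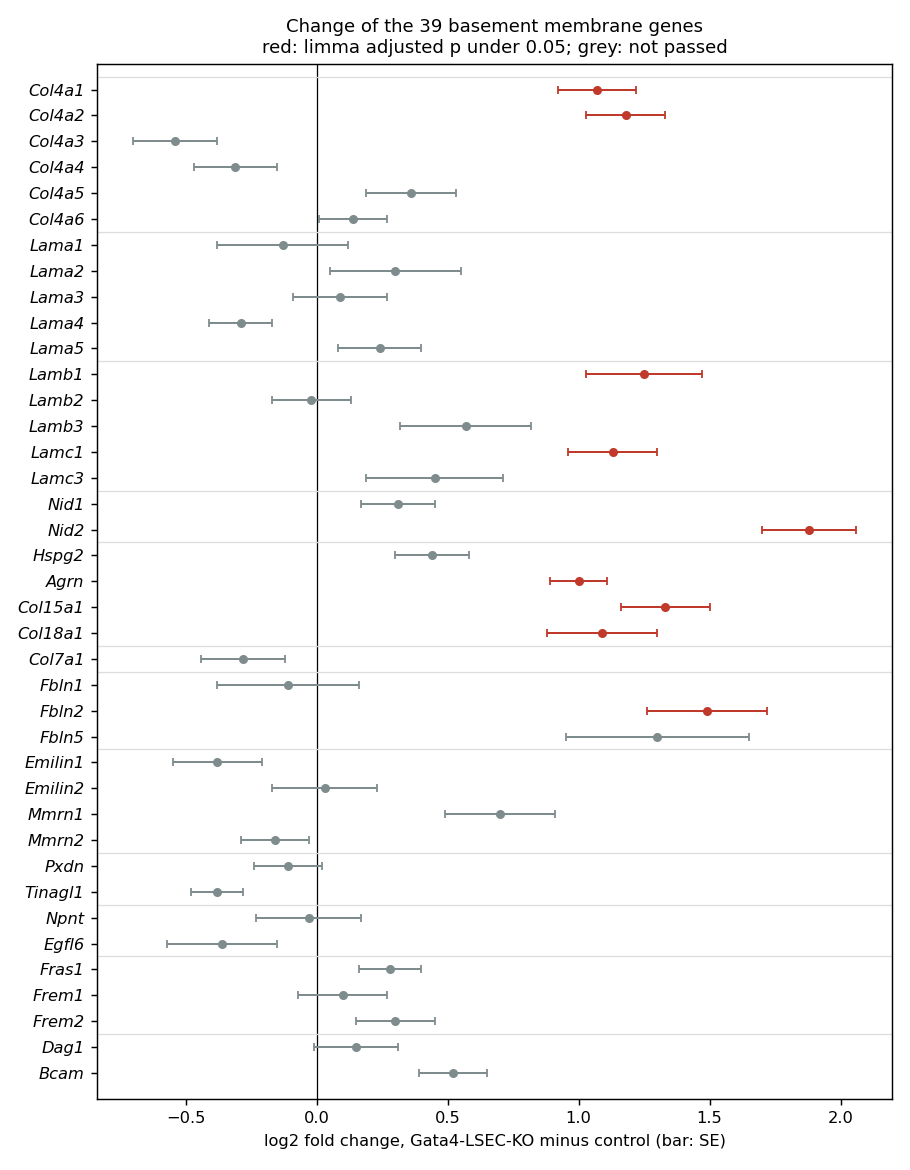
Log2 fold change of each of the 39 genes, knockout minus control (x axis), with its limma standard error as a bar and genes grouped by role from top to bottom. The 9 red points lie between 1.00 and 1.88, while the grey points, which did not pass, run from -0.54 to 1.30.

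In the collagen IV family the chains of the vascular trimer rose and the other 4 did not pass. Col4a1 encodes the alpha1 chain and Col4a2 the alpha2 chain, which together make the trimer found in nearly all basement membranes. Col4a1 read 9.22, 9.34, 9.75, 9.39 and 10.04 in knockout replicates 1 to 5, and 8.38, 8.44, 8.52, 8.60 and 8.43 in control replicates 1 to 5. All knockout arrays were above all controls, with a gap of 0.62 between the nearest of them. It rose 2.10-fold (log2 fold change 1.07 ± 0.15 SE, adjusted p = 0.0037 by limma). Col4a2 read 8.84, 8.90, 9.37, 9.14 and 9.61 in the knockout against 7.93, 8.07, 7.96, 8.11 and 7.90 in the controls. These groups did not overlap either, and knockout replicate 5 was highest for each chain. The rise of Col4a2 was 2.26-fold (1.18 ± 0.15, adjusted p = 0.00159).

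The other collagen IV chains belong to networks with a narrower tissue range. Col4a3, a chain of the kidney filtration barrier, read 4.34, 3.94, 4.15, 3.89 and 4.36 in the knockout and 4.27, 4.56, 4.94, 5.04 and 4.57 in the controls. Control replicate 1 was the lowest control and overlapped the knockout, and the gene did not pass (-0.54 ± 0.16, adjusted p = 0.136). Without that array it was called lower (-0.64 ± 0.15, adjusted p = 0.0428). Its head-to-head neighbour Col4a4 was at -0.31 ± 0.16 (adjusted p = 0.46). On the X chromosome, Col4a5 was at 0.36 ± 0.17 (adjusted p = 0.395) and Col4a6 at 0.14 ± 0.13, with group means of Col4a6 under the array median of 3.71, where a value may be mostly background.

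Among the laminins, the beta1 and gamma1 chains rose and no alpha chain passed. Lamb1 encodes the beta1 chain, which is shared by several laminins. It read 6.79, 7.02, 7.11, 6.69 and 7.49 in the knockout and 5.38, 5.58, 5.39, 6.24 and 6.24 in the controls. The controls fell into a lower and a higher set, and all lay below the knockout by at least 0.45. The rise was 2.39-fold (1.25 ± 0.22, adjusted p = 0.0115). Lamc1, the gamma1 chain, which is part of most laminin heterotrimers, read 8.37, 8.35, 8.51, 8.54 and 8.84 against 6.79, 7.52, 7.50, 7.69 and 7.46. Control replicate 1 was well below the other controls, and the groups did not overlap with or without it. Lamc1 rose 2.19-fold (1.13 ± 0.17, adjusted p = 0.00506; 0.00126 without control replicate 1). In a fit with array weights, where control replicate 1 had the lowest weight (0.203), the log2 fold change was smaller, at 0.97.

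The alpha chains, which carry most receptor contacts of a laminin, gave 0 calls of 5 in either direction. Lama4, the alpha chain of vascular laminins, read 8.46, 8.18, 8.63, 8.60 and 8.54 in the knockout and 8.90, 8.84, 8.86, 8.53 and 8.73 in the controls. Knockout replicates 3, 4 and 5 lay above the lowest control, so the groups overlapped, and the change did not pass (-0.29 ± 0.12, adjusted p = 0.296). Lama5, the other endothelial alpha chain, was at 0.24 ± 0.16 (adjusted p = 0.572), with a 95% interval from -0.11 to 0.59. Lama1 (-0.13 ± 0.25), Lama2 (0.30 ± 0.25), the chain of muscle and stromal basement membranes, and Lama3 (0.09 ± 0.18), an epithelial chain, also did not pass. The beta2 chain gene Lamb2 was at -0.02 ± 0.15 with a 95% interval from -0.35 to 0.31, while Lamb3 (0.57 ± 0.25) and Lamc3 (0.45 ± 0.26) had adjusted p of 0.35 and 0.508.

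Within single arrays, Lamc1 minus Lama4 ran from -0.12 to 0.30 in the knockout and from -2.11 to -0.85 in the controls. Lamb1 minus Lama4 ran from -1.91 to -1.05 and from -3.52 to -2.29. These chains can share a heterotrimer, and the differences between them moved up by 1.42 and 1.55. Lamc1 minus Lamb1 moved by -0.12, from a mean of 1.63 to 1.50. These combinations were chosen after the values were seen and were not tested, and the array scales of separate genes cannot be compared, so only the shift between groups can be read.

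**Figure D2:**
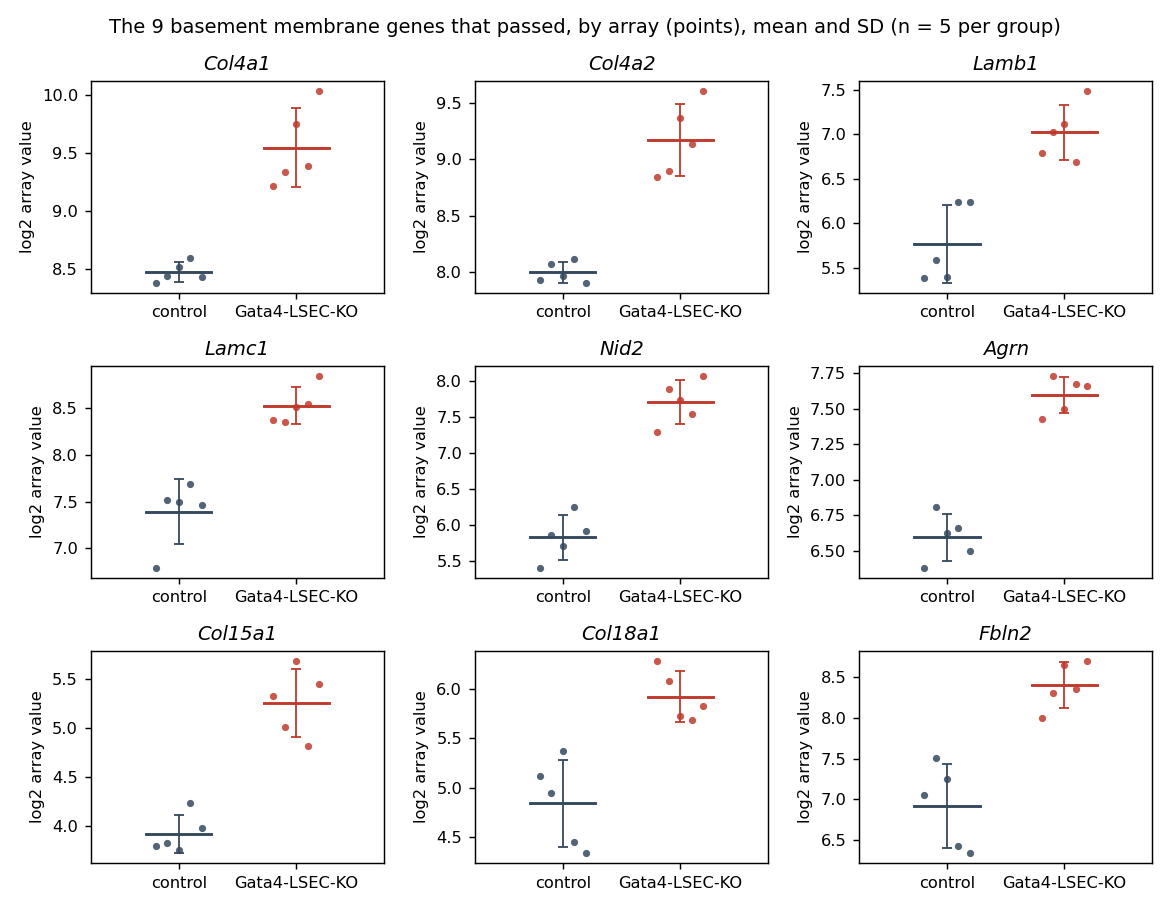
Log2 array value (y axis) of each of the 9 genes that passed, with 5 control and 5 knockout arrays as points, and the group mean and SD as lines. No panel shows overlap between groups, and the gap between the nearest arrays is smallest for Col18a1 at 0.32 and widest for Nid2 at 1.04.

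Nidogens bridge the laminin and collagen IV networks, and only Nid2 of the pair passed. It read 7.29, 7.88, 7.74, 7.54 and 8.07 in the knockout and 5.40, 5.86, 5.71, 6.25 and 5.92 in the controls. Its lowest knockout value was 1.04 above its highest control value, the widest gap of the 9 genes. Nid2 rose 3.67-fold (1.88 ± 0.18, adjusted p = 0.00033). Nid1, the classical entactin, read 8.88, 8.92, 9.25, 9.01 and 9.23 against 8.32, 8.98, 8.81, 8.90 and 8.71. Its groups overlapped, and it did not pass (0.31 ± 0.14, adjusted p = 0.355).

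Of the 4 basement membrane proteoglycans, 3 rose and Hspg2 did not pass. Agrn encodes agrin, a heparan sulfate proteoglycan that binds laminin and dystroglycan. It read 7.43, 7.73, 7.50, 7.67 and 7.66 in the knockout and 6.38, 6.81, 6.63, 6.66 and 6.50 in the controls. Its arrays were tightly grouped, with an SD of 0.13 for knockout and 0.17 for control arrays. Agrn rose 2.01-fold (1.00 ± 0.11, adjusted p = 0.000744). Hspg2, which encodes perlecan, the main heparan sulfate proteoglycan of vessel walls, read 9.59, 9.45, 9.90, 9.64 and 10.11 against 9.31, 9.55, 9.19, 9.34 and 9.10. Control replicate 2 overlapped the knockout, and it did not pass (0.44 ± 0.14, adjusted p = 0.165).

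Collagens XV and XVIII are the multiplexins, proteoglycan collagens of vascular basement membranes whose ends yield restin and endostatin. Col15a1 read 5.32, 5.01, 5.68, 4.81 and 5.44 in the knockout and 3.79, 3.83, 3.75, 4.23 and 3.98 in the controls. Its control values lay near the array median of 3.71, so the fold compares array values only. It rose 2.52-fold (1.33 ± 0.17, adjusted p = 0.00159). Col18a1 read 6.29, 6.09, 5.73, 5.69 and 5.83 against 5.12, 4.94, 5.37, 4.44 and 4.33. The controls spread over more than 1.00, and the nearest arrays of the groups were 0.32 apart. Its rise of 2.13-fold (1.09 ± 0.21, adjusted p = 0.0207) missed the threshold when knockout replicates 1 and 2 and control replicates 4 and 5 were left out singly (adjusted p from 0.0526 to 0.0637).

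Fibulins are calcium-binding glycoproteins that connect basement membranes with elastic fibres. Fbln2 read 8.0, 8.31, 8.65, 8.36 and 8.70 in the knockout and 7.06, 7.51, 7.25, 6.43 and 6.34 in the controls. The groups did not overlap, and control replicates 4 and 5 were lowest. Fbln2 rose 2.80-fold (1.49 ± 0.23, adjusted p = 0.00666). Fbln5, a fibulin of elastic fibre assembly, read 7.38, 7.81, 8.03, 7.66 and 7.96 against 4.92, 6.97, 6.99, 6.77 and 6.72. All knockout arrays were above all controls, but control replicate 1, at 4.92, stood far below the next control at 6.72. With it the gene missed the threshold (1.30 ± 0.35, adjusted p = 0.0946), and without it the gene passed with a smaller change (0.91 ± 0.14, adjusted p = 0.00543). Fbln1 did not pass (-0.11 ± 0.27), and knockout replicate 2, at 5.69, was far above the other knockout arrays.

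None of the remaining genes passed. Tinagl1, a secreted protein of vascular basement membranes related to tubulointerstitial nephritis antigen, read 10.11, 10.17, 10.53, 10.30 and 10.19 in the knockout and 10.62, 10.70, 10.69, 10.57 and 10.62 in the controls. Its groups did not overlap, with a gap of 0.04, and it was the member wholly below the controls (-0.38 ± 0.10, adjusted p = 0.0946). Without knockout replicate 3 it was called lower (adjusted p = 0.0466). Bcam, the Lutheran glycoprotein and a laminin alpha5 receptor, read 7.64, 7.89, 7.75, 7.65 and 7.95 against 6.95, 7.60, 7.17, 7.23 and 7.31. Here the groups were 0.04 apart, and the change of 0.52 ± 0.13 had an adjusted p of 0.0666, which was 0.0362 without control replicate 2. Dag1, which encodes dystroglycan, a receptor of laminin and agrin, was at 0.15 ± 0.16.

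Emilin1, a glycoprotein of elastic fibres and lymphatic vessels, was at -0.38 ± 0.17 (adjusted p = 0.365), and Emilin2 at 0.03 ± 0.20. Mmrn1, multimerin of platelets and lymphatic endothelium, was at 0.70 ± 0.21 (adjusted p = 0.134), with knockout replicate 2 the highest. Mmrn2, the endothelial multimerin that binds CD93, read 9.60 ± 0.19 with the deletion and 9.76 ± 0.19 without it (SD, n = 5; limma adjusted p = 0.647). Pxdn, the peroxidase that forms the sulfilimine cross-links of collagen IV, was at -0.11 ± 0.13, with a 95% interval from -0.39 to 0.17. Col7a1, the anchoring fibril collagen of skin, was at -0.28 ± 0.16, and the integrin ligands Npnt (-0.03 ± 0.20) and Egfl6 (-0.36 ± 0.21) did not pass. The Fraser complex genes Fras1 (0.28 ± 0.12), Frem1 (0.10 ± 0.17) and Frem2 (0.30 ± 0.15), known from skin and kidney epithelia, did not pass. Together with Col4a6, Lamb3 and Egfl6, these 3 had group means under the array median in the knockout and in the controls.

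Related chains were then compared within arrays, as the difference between their log2 values, in 13 pairs. An exact permutation test (2-sided, 252 arrangements, smallest possible p = 0.00794) was run on each, with Benjamini-Hochberg adjustment over the 13 pairs. The pairs were chosen with earlier results of these data known, so the p-values are descriptions. The change was unequal in 3 pairs. Each of these sets a gene called above (Nid2, Lamb1 or Agrn) against a relative that did not pass, so they add no separate support to those calls. Nid1 minus Nid2 went from 2.92 ± 0.20 in the controls to 1.35 ± 0.24 in the knockout (SD, n = 5; exact p = 0.00794, adjusted 0.0344), so Nid2 gained 1.56 on Nid1. Lamb1 minus Lamb2 went from -2.08 ± 0.46 to -0.81 ± 0.18 (exact p = 0.00794, adjusted 0.0344), a gain of 1.27 for the beta1 chain. Hspg2 minus Agrn went from 2.70 ± 0.15 to 2.14 ± 0.30 (exact p = 0.00794, adjusted 0.0344), which is -0.56 for perlecan against agrin.

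Another 3 pairs missed the threshold narrowly, each with an adjusted exact permutation p of 0.0516: Fbln1 minus Fbln2 moved by -1.59, Mmrn1 minus Mmrn2 by 0.86 and Lama4 minus Lama5 by -0.53. In the head-to-head pair Col4a1 and Col4a2 the difference was 0.38 ± 0.07 in the knockout and 0.48 ± 0.07 in the controls (n = 5), a shift of -0.10 (exact p = 0.0635, adjusted 0.118). For Col15a1 minus Col18a1 the shift was 0.25 (exact p = 0.476). The other 5 pairs did not pass, with shifts from -0.41 to 0.68. With 1 array left out the smallest possible exact p is 0.0159 before the adjustment, so the counts that remain, 5 pairs without control replicate 2 and 0 without any other array, say nothing about stability.

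**Figure D3:**
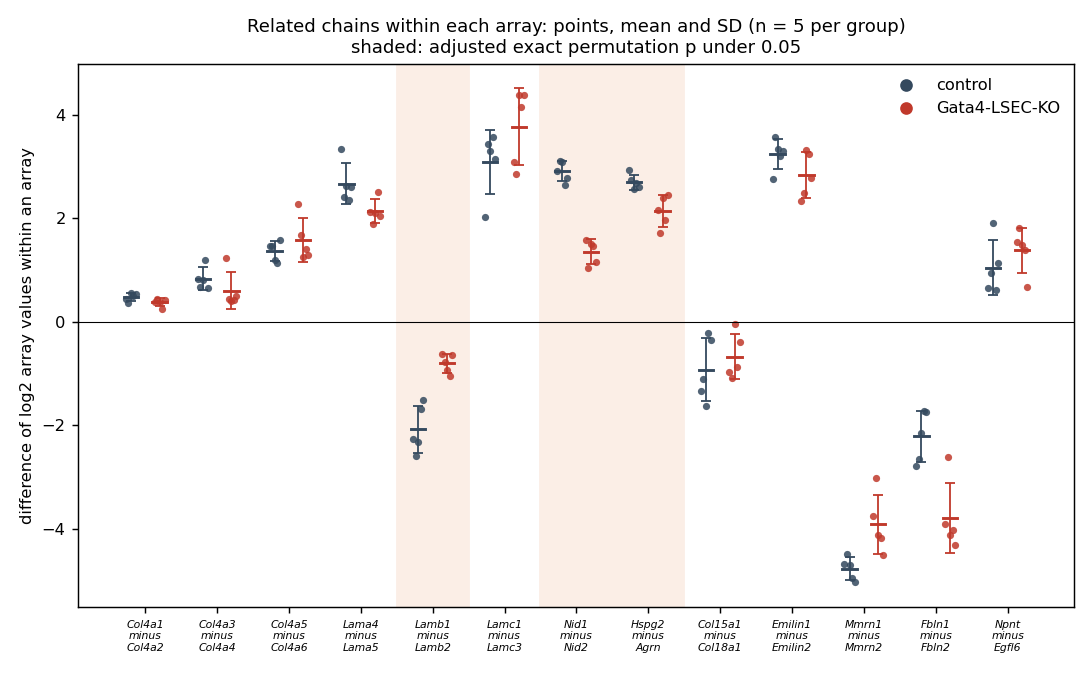
Difference of log2 array values between related chains within each array (y axis) for 13 pairs, with control and knockout arrays as points and mean and SD as lines. In the 3 shaded pairs the groups are separate, as for Nid1 minus Nid2, where controls run from 2.64 to 3.12 and the knockout from 1.04 to 1.59.

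The calls were also examined array by array. Of the 9 calls, 8 remained without any single array, and the exception was Col18a1. Knockout replicate 5 was the highest knockout array for 6 of the 9, among them Col4a1, Lamb1 and Nid2. Without control replicate 1 the counts were 10 higher and 1 lower, the additions being Fbln5 and Col4a3. The highest adjusted p of Nid2 without an array was 0.00189, that of Agrn 0.00402 and that of Lamb1 0.0373.

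**Figure D4:**
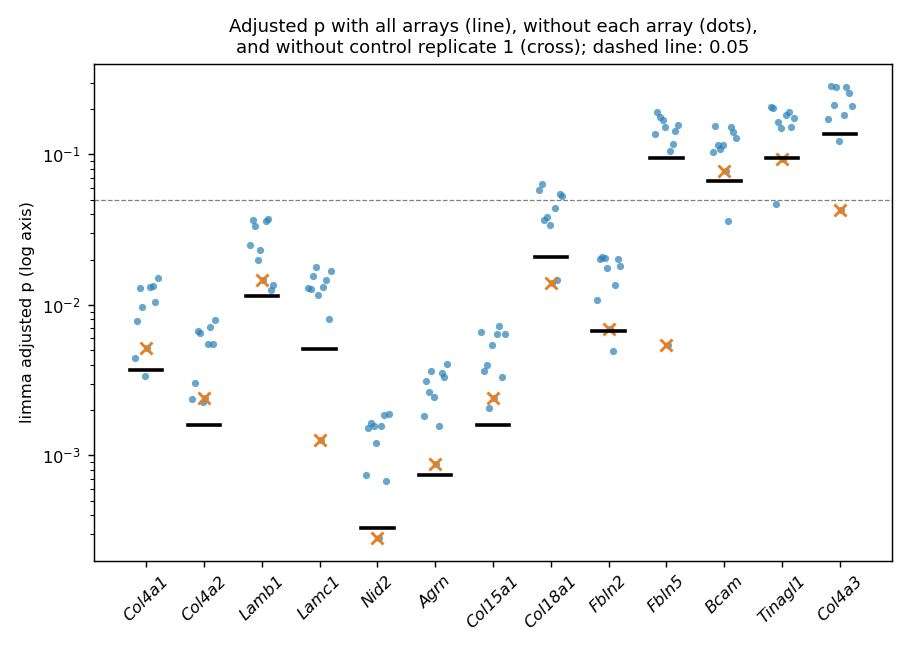
Limma adjusted p (log axis) of the 9 risen genes and of 4 genes near the threshold, with all arrays as a line, without each array in turn as dots and without control replicate 1 as a cross. Col18a1 straddles the dashed threshold of 0.05, and the Fbln5 cross, at 0.00543, lies far below its other points.

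Genes that make, modify or bind basement membrane were counted from separate lists. Over all genes tested, 1.3% were called higher and 0.846% lower, and the median log2 fold change was -0.02. Of 26 measured genes of collagen folding, modification, export and cross-linking, 2 rose and 24 did not pass, with a median log2 fold change of 0.18. Bmp1, the procollagen C-proteinase, rose 1.95-fold (0.96 ± 0.15, adjusted p = 0.00752), from 4.46 ± 0.19 to 5.42 ± 0.30 (SD, n = 5). Colgalt2, a collagen galactosyltransferase, rose 2.02-fold (1.01 ± 0.23, adjusted p = 0.046), and this call ended without any array except control replicates 2 and 3. Of 24 genes of heparan sulfate synthesis and editing, Xylt1, a xylosyltransferase that starts the chains, rose (1.13 ± 0.23, adjusted p = 0.0259), and 23 did not pass. The control mean of Xylt1, 3.06, was under the array median too. Leaving out replicate 2, 3 or 4 of either group ended that call (highest adjusted p 0.0755). Of 13 genes of dystroglycan glycosylation and its complex, B4gat1, a glucuronyltransferase, fell (-0.58 ± 0.13, adjusted p = 0.0471) and 12 did not pass. The B4gat1 call ended whichever array was left out (adjusted p up to 0.113).

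A list of receptors of laminin, collagen IV and other matrix ligands had 3 of 20 genes higher, 0 lower and 17 not passed. Its median was 0.50, against -0.02 over all genes, of which 1.3% were called higher. Itga2, the collagen-binding alpha2 integrin chain, read 4.84 to 5.48 in the knockout and 2.55 to 3.90 in the controls and rose (1.90 ± 0.22, adjusted p = 0.0011). Its control mean of 3.25 lay under the array median, so the size of the change is uncertain. Itga6, a laminin-binding integrin chain, rose 2.24-fold (1.16 ± 0.16, adjusted p = 0.00272). Mcam, which encodes CD146, the antigen of the sorting beads and a laminin alpha4 receptor, rose 2.36-fold (1.24 ± 0.11, adjusted p = 0.000242).

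Endothelial markers were bright on every array, and markers of other cells were present as well. Over all genes tested, 1.3% were called higher and 0.846% lower. The knockout arrays lay wholly above the controls for 2.55% of all genes and wholly below for 2.37%. Of 8 pan-endothelial markers 0 passed, with a summed array value of 11798 to 17360 in the knockout and 12136 to 16312 in the controls. Of 12 sinusoidal markers 6 fell, Clec4g, Ctsl, F8, Dnase1l3, Mrc1 and Gpr182, and the sum over the list was 17244 to 23973 against 25323 to 31455. The other 6 did not pass. Of these, Stab1 (-0.53 ± 0.17), Stab2 (-0.55 ± 0.15), Oit3 (-0.34 ± 0.15) and Fcgr2b (-0.25 ± 0.13) were below 0. Lyve1 (0.29 ± 0.27) and Cd36 (0.29 ± 0.13) were above 0. Dropping replicate 1 or 2 of the knockout, or replicate 2, 3 or 4 of the controls, left 1 call. With knockout replicate 4 or control replicate 5 dropped 2 were left, and with knockout replicate 5 dropped 3. Ctsl (adjusted p = 0.00465) was the marker called lower whichever array was left out. Stellate cells and fibroblasts, which also make basement membrane, gave 0 calls of 14 markers, with sums of 1328 to 4796 in the knockout and 708 to 3698 in the controls. Of these markers 11 had a log2 fold change above 0 and 3 below, from -0.57 for Ngfr to 1.23 for Col1a1, with a median of 0.65. Col1a1 (1.23 ± 0.33, adjusted p = 0.0951) and Des (0.98 ± 0.36, adjusted p = 0.241) had all knockout arrays above all controls, while Lrat was at 0.20 ± 0.61 and Dcn at 0.02 ± 0.52. In bulk samples such as these, more cells of a type and more RNA per cell cannot be told apart.

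Of the other lists, the mesothelial and neutrophil sums separated the groups, and the sums of the rest overlapped. Beside the counts that follow, 1.3% of all genes were called higher and 0.846% lower. For 2.55% of all genes the knockout arrays lay wholly above the controls. Of 8 genes listed for mesothelium, Krt8 (adjusted p = 0.0477), Wt1 (0.0184) and Gpm6a (0.0467) rose and 5 did not pass. Those 5 included Msln (0.05 ± 0.27), Upk3b (-0.26 ± 0.24), Lrrn4 (-0.50 ± 0.41) and Muc16 (0.00 ± 0.09). The sums were 377 to 535 against 260 to 330. Gpm6a (7.59) and Krt8 (6.83) had the highest knockout means of the list and weigh most in its sum. Whether Krt8 came from mesothelium or from other epithelial cells was not tested. None of the list was called without control replicate 4 or 5. Dropping replicate 1, 2 or 4 of the knockout, or replicate 3 of the controls, left 1 call, and dropping each other array left 2 to 3. Of 10 neutrophil and monocyte markers 7 rose, S100a8, S100a9, Ngp, Retnlg, Ly6c2, Mmp8 and Ccr2. The list had a median log2 fold change of 1.82 and sums of 264 to 1046 against 73 to 141. Control means of Ngp, Retnlg, Ly6c2, Mmp8 and Ccr2 were under the array median of 3.71, so the size of their changes is uncertain. Those of S100a8 (3.73) and S100a9 (3.83) were just above it. Dropping knockout replicate 4, control replicate 2 or control replicate 5 left 4 of the 7 called, and dropping each other array left 5 to 7. All 8 cholangiocyte markers had higher means in the knockout, from 0.70 for Prom1 to 2.11 for Epcam with a median of 1.31, and the sums were 141 to 577 against 81 to 144. Krt23 passed, and for Krt19, Krt7, Sox9 and Krt23 the knockout arrays lay wholly above the controls. The control means of Krt23 (2.50), Krt19 (3.51), Cldn4 (3.43), Cftr (2.27) and Prom1 (2.91) were under the array median of 3.71. The size of their changes is therefore uncertain, while Krt7, Epcam and Sox9 had control means above it. The number called was 5 without knockout replicate 5, 2 without knockout replicate 3 or control replicate 1, 0 without any other array, and 6 with array weights. Of 10 hepatocyte markers Tat and Hp rose and Cyp2e1 fell, with sums of 1552 to 5254 against 1551 to 2291. No hepatocyte marker was called without knockout replicate 1 or control replicate 4 or 5. Macrophage (1106 to 2333 against 425 to 2701) and platelet markers (94 to 109 against 90 to 116) gave no call. The part of these cells in the rise of the 9 genes was not tested.

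**Figure D5:**
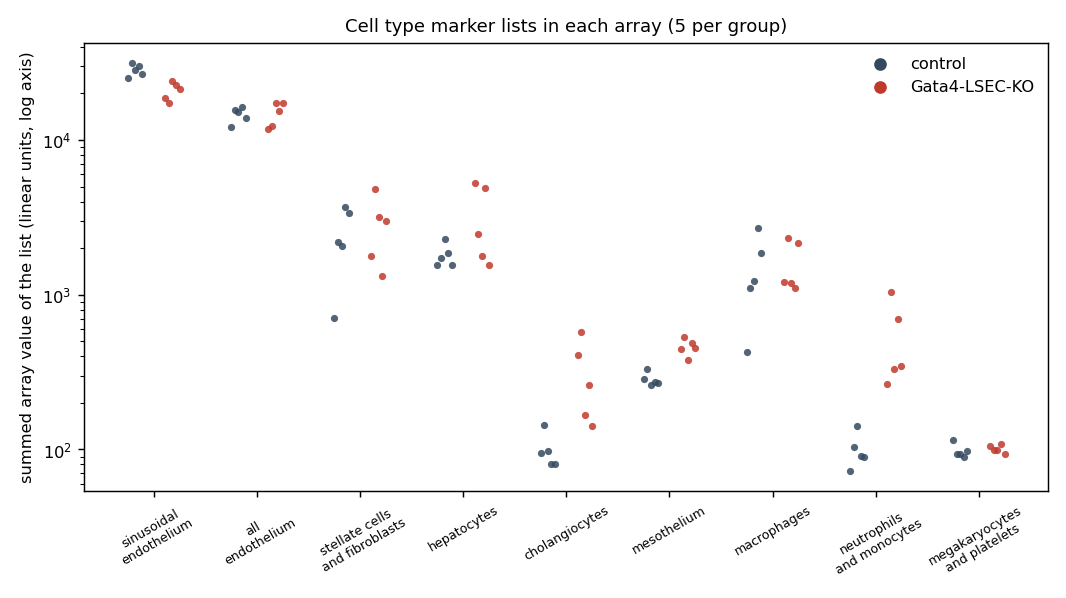
Sum of the linear array values (log axis) of 9 cell type marker lists in each array, 5 control and 5 knockout arrays as points. The sinusoidal sum lies lower in the knockout and the mesothelial and neutrophil sums higher, without overlap. Gpm6a and Krt8 weigh most in the mesothelial sum, and 5 of its 8 genes, Msln, Upk3b, Lrrn4 and Muc16 among them, did not pass. The stellate points of the groups overlap, from 1328 to 4796 and from 708 to 3698.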

How the data were processed

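RNA of 10 pools was hybridised to Affymetrix arrays, per the labels. The authors' deposited values are log2 values from RMA, per the submitters' processing notes; RMA subtracts background, equalises the distributions of the arrays and sums up the probes of a set. No source used here gives its version, the array design or a build. The log2 scale was judged from the range of the values, and 9 of the 10 arrays hold one identical distribution. The remaining array departs from it, by an amount that was not measured, although RMA equalises distributions. Which array this is was not recorded. Of 25428 probe sets, 24705 had a gene symbol in the platform annotation and 723 were unnamed here; 1 symbol with several probe sets was represented by the brightest, leaving 24704 genes. All 39 members matched by symbol. Probe sets can share sequence with paralogs, which was not checked.

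Knockout and control were compared with limma 3.58.1 in R 4.3.3 (lmFit and eBayes) on all genes and 10 arrays, without covariates or filter, with Benjamini-Hochberg adjustment and a threshold of 0.05. Each p-value reflects variation among pools of 3 mice, which the labels call biological replicates. Fold changes are knockout minus control with their SE. The procedure was also run on simulated data with independent noise for each gene and arrays of equal quality. That setting holds no outlying array such as control replicate 1 and no shared shift between arrays, so it does not bear on these calls. Pathway lists and cell type markers, which were all reported, gave up to 4 named genes past the threshold per pathway list and all such markers, and every member is named; lists, pairs and members were chosen with earlier results of these data known. Symbols not found were looked up among synonyms in a RefSeq table, which matched 1 hepatocyte marker, Serpina1a, to Serpina1d. Depth does not apply to arrays; their number limits the precision. Alternatives were an intensity trend, robust variances, array weights, a replicate block, a filter on dim genes, cyclic loess, and leaving out each array.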

Additional observations from a re-analysis of the deposited data

Results flagged for a closer look

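Over the 78 groups of 5 arrays (39 genes in each genotype), an array whose distance to its nearest neighbour was over 0.71 of the group's range was found 6 times, where chance flags about 1 group in 20. Control replicate 1 was the distant array in 5 of them, always as the lowest: Lama2 at 3.50 (next control 4.28), Lamc1 at 6.79 (next 7.46), Fbln5 at 4.92 (next 6.72), Mmrn2 at 9.43 (next 9.79) and Pxdn at 8.51 (next 8.84). The sixth was Fbln1 in knockout replicate 2, at 5.69 against 4.52 in the next knockout array. Control replicate 1 also had the lowest stellate and macrophage sums of all arrays, 708 and 425. The part of this in the 5 values was not tested.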

How the results depend on the processing

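The count of 9 higher members stayed between 8 and 10 under all alternatives, and the direction of all 9 was kept. Bcam was added as higher with the dim filter (limma adjusted p = 0.0479) and with cyclic loess (0.0393), and Fbln5 with array weights (0.0147). All 9 calls were among those made with an intensity trend, robust variances, array weights, the replicate block, the dim filter and cyclic loess. With array weights their log2 fold changes ran from 0.95 (Agrn) to 1.73 (Nid2). Members called lower were 1 with an intensity trend (Tinagl1) and 1 with array weights (Col4a3), and 0 to 1 without each array. Over all genes 529 were called, 1070 with array weights, 275 with the replicate block, and 287 to 737 without each array. Unequal pairs numbered 3, 3 with cyclic loess, and 0 to 5 without each array, where the smallest exact p is 0.0159. The replicate numbers are not taken to pair the arrays: deviations of same-numbered arrays correlated at -0.165 to 0.0389, and no array correlated best with its own number. With the replicate block 9 members were called higher and 0 lower, and of the lists above, sinusoidal markers called lower went from 6 to 1, mesothelial markers called higher from 3 to 0 and hepatocyte markers called higher from 2 to 0. With array weights 5 receptor genes and 4 collagen processing genes rose in place of 3 and 2.

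Changes near 0 turned sign without passing: Lama3 was at -0.07 and Dag1 at -0.01 with array weights, Lamb2 at 0.00 and Npnt at 0.00 with cyclic loess. Without each array, Lamb2 ran from -0.09 to 0.08, Emilin2 from -0.08 to 0.15, Npnt from -0.20 to 0.08, Lama1 from -0.31 to 0.02, Lama3 from -0.04 to 0.17 and Fbln1 from -0.38 to 0.02. The cause was not tested. Group means under the array median of 3.71 limit what can be read for 6 members, and no detection calls were used.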
